A study of Mus musculus with 4 samples.

Results

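CTCF is a zinc finger protein that binds a long, partly CpG-containing DNA sequence and, together with the ring-shaped cohesin complex, holds the anchors of chromatin loops. Most of its sites lie away from genes, but some lie at gene starts. Many promoters of mammals sit in CpG islands, stretches that are rich in G and C, keep their CpG dinucleotides and are mostly unmethylated, and such promoters drive most housekeeping genes and many neuronal genes. The regions described here are the CTCF peaks at CpG-rich promoters of protein-coding genes in mouse cortex. They are 2404 of the 44672 peaks in the conservative list, the peaks that passed an irreproducible discovery rate (IDR) of 0.05 between both pools of animals. The IDR estimates how likely a peak is not to repeat between 2 inputs. A peak was kept if its summit, the position of highest signal, lay within 1000 bp of a transcription start site (TSS) of a protein-coding gene and if the window of 100 bp to either side of the summit met 2 limits. These were a share of G and C (GC) of at least 0.55 and an observed to expected ratio of CpG of at least 0.6, where the expected number is the product of the C and G counts divided by the length.

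The tissue was left cerebral cortex of female adult mice aged 2 months of the strain B6CASTF1/J, the F1 cross of the laboratory mouse and Mus musculus castaneus. Chromatin was precipitated with an antibody to CTCF, and 4 libraries were made, 2 technical replicates each from pool I and pool J, with 4 cortex biosamples in each pool. There was no treatment, no other genotype and no second tissue, and a pool holds every cell type of the cortex, so the peaks are a mixture over cell types and over both parental alleles. Peaks carry no cell type markers and do not measure expression, so the tissue label could not be checked against marker genes. The libraries of a pool were merged before peaks were called, which leaves 1 value per pool, an unknown read depth and no test between groups of samples. Every difference below is therefore a description of peaks, with exact 95% binomial (Clopper-Pearson) intervals that cover the counting of peaks only and not the spread between animals. The signal value of a peak is the authors' own, in the unit of their peak caller. It is given per pool and as a percentile, its rank among the 44672 peaks from 0 (weakest) to 100 (strongest).

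The sequences under the strongest of these peaks show what CTCF meets at a CpG-rich promoter. A motif of 20 bp was learned from strong peaks away from promoters, and its consensus, the most frequent base at each position, was GTGGCCACCAGGGGGCGCTA. From the strongest CpG-rich promoter peaks that hold a match within 50 bp of the summit, 8 are shown with the matched bases, read 5′ to 3′ on the strand of the motif and on build mm10. They are shown as examples of the bases matched under strong peaks and were not picked for CpG. Counted from the 5′ end, 7 of the 8 hold a CpG at positions 16 and 17. Of these, 3 (Nob1, Ocel1 and Prmt3) hold another at positions 6 and 7. The rule partly imposes this, because the match lies inside the window whose CpG was counted.
Cul5 (chr9:53667570-53667589, minus strand): CCAGCCAGCAGAGGGCGCGC
Nob1 (chr8:107425132-107425151, minus strand): GTGGCCGCTAGGGGGCGCCG
Adprhl2 (chr4:126321744-126321763, minus strand): CGGGCCACAAGGGGGCGCTG
Ocel1 (chr8:71371765-71371784, plus strand): CCTGCCGCCAGGGGGCGCCA
Psmd6 (chr14:14121015-14121034, minus strand): ATGTCCAGCAGGGGACGCTG
Car7 (chr8:104534657-104534676, plus strand): GCAGCCAGTAGGGGGCGCCG
Prmt3 (chr7:49778238-49778257, plus strand): TCTGCCGCCAGAGGGCGCTG
Phrf1 (chr7:141228432-141228451, plus strand): CCAGCCACCAGGAGGAGGCG

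Not every strong peak holds such a match. The next 4 windows reach 100 bp to either side of the summits of 2 strong peaks with a match and 2 without, each among the strongest that overlap no annotated untranslated region. In the first pair capitals mark the match, which is on the minus strand at Nob1 and so appears as its reverse complement. In the second pair capitals mark the GC box GGGCGG, the binding sequence of Sp1-like factors, on either strand. The Spata20 window holds the GC box 2 times and the Atp5mpl window holds none. The GC box is not marked in the first pair, and the Prmt3 window also holds it, as its reverse complement near the end. Over all CpG-rich promoter peaks it was as frequent with a match (58.5%) as without (58.9%).
Nob1 (chr8:107425055-107425255, plus strand): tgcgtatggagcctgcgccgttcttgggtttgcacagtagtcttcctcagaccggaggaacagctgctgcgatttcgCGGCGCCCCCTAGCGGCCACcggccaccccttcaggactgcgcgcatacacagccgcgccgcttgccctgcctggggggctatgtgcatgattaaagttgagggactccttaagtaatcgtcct
Prmt3 (chr7:49778140-49778340, plus strand): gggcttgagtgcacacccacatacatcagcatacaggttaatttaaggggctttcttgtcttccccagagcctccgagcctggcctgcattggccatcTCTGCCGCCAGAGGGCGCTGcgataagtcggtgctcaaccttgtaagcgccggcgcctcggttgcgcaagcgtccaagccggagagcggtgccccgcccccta
Spata20 (chr11:94486145-94486345, plus strand): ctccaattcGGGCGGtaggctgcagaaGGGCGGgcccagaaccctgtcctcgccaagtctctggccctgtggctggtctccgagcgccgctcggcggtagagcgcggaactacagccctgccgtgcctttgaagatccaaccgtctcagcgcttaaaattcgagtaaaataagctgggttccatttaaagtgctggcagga
Atp5mpl (chr12:111966988-111967188, plus strand): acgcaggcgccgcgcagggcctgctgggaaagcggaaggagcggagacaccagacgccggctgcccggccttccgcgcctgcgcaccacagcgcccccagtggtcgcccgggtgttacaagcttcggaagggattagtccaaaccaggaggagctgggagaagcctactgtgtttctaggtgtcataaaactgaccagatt

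The 4 windows are named after the gene with the nearest TSS. Nob1 encodes an endonuclease of ribosomal RNA maturation, and its peak summit lay 106 bp upstream of the TSS with a signal value of 410 in pool I and 310 in pool J. Prmt3 encodes an arginine methyltransferase, with a summit 106 bp upstream and signal values of 403 and 297. Spata20 had values of 399 and 311 with a summit 897 bp upstream, and its best 20-mer scored 0.984, against 11.6 needed for a match. Atp5mpl, a small subunit of the mitochondrial ATP synthase, had values of 384 and 284 with a summit 111 bp upstream and a best score of 1.12. All 4 windows were picked for strong signal, so their like values follow from the choice.

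CpG-rich promoter peaks made up 5.38% of the conservative list, about as many as the 2325 peaks (5.20%) at protein-coding promoters that were not CpG-rich. A further 811 CpG-rich peaks (1.82%) lay more than 1000 bp from any annotated TSS, and these 2 classes serve for comparison. The windows at CpG-rich promoters had a median GC of 67.7% and a median CpG ratio of 0.837, values that the rule fixes in part. At CpG-poor promoters the medians were 52.2% and 0.414. Peak width hardly differed, with medians of 313 bp and 303 bp. None of the CpG-rich promoter windows was covered over 50% by repeats, against 8.60% at CpG-poor promoters and 16.5% of all windows. CpG-rich windows away from promoters were nearly the same, with 0.123%. Just inside the GC limit (55 to 57%) 108 peaks had a median percentile of 52.4, and just outside it (53 to 55%) 68 peaks had 53.1. Just inside the CpG limit (0.60 to 0.65) 190 peaks had 49.6, and just outside it (0.55 to 0.60) 175 had 47.4. At the limit of distance the medians were 54.3 for 42 peaks (900 to 1000 bp) and 47.1 for 27 peaks (1000 to 1100 bp).

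In strength these peaks covered the whole range of the list. Their median percentile was 44.7 (lower and upper quartiles 21.8 and 73.1), close to the 45.0 of peaks at CpG-poor promoters and below the 65.4 of CpG-rich peaks away from promoters. Their part of the list was largest at both ends. They formed 6.45% of the weakest decile of the list, 3.67% of decile 8 and 7.07% of the strongest decile. Both pools gave the same picture, with median percentiles of 44.7 in pool I and 45.1 in pool J. Median signal values were 165 in pool I and 71.5 in pool J, against 186 and 83.1 over all peaks. The depth of each pool is unknown, so pool values are compared only after centring their ratio on its median over the list.

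The 10 strongest peaks were spread over 7 chromosomes, and 9 of the 10 lay upstream of a TSS. The strongest was at Cep120, which encodes a centriole protein, with signal values of 413 in pool I and 319 in pool J and a summit 120 bp upstream. It was followed by Cul5, the scaffold of a ubiquitin ligase, with 402 and 319, and by Nob1. Adprhl2, an ADP-ribose hydrolase, had 405 and 303, and Psmd6, a subunit of the proteasome cap, had 396 and 304. Car7, a carbonic anhydrase, had 394 and 304 with a summit 31 bp upstream, between its own TSS and that of Nae1, a subunit of the NEDD8-activating enzyme. Spata20 and Prmt3 were also upstream. Only Ocel1 had its summit downstream, 422 bp into the gene in a coding exon, with values of 396 and 305. Within these 10 the signal ranged from 394 to 413 in pool I and from 297 to 319 in pool J, so their order within each pool rests on small differences. Strong signal did not always mean a low IDR. Of the 71 CpG-rich promoter peaks in the strongest 1% of the list, 19 (26.8%) had an IDR above 0.01, against 1.28% of those between the strongest and the weakest decile and 35.4% of the weakest decile. Over all conservative peaks the shares were 19.2%, 0.742% and 35.3%. Among the 10 strongest named here the IDR ranged from 0.00228 to 0.0397.

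The 5 weakest peaks show a limit of the lists. Inpp1, Sez6l, Zpr1 and Dennd4b were among them, at percentiles from 0.0504 to 0.153, and none of these 4 held a motif match. Dennd4b was at percentile 0.153 although its listed pool values were 301 in pool I and 194 in pool J, above the medians of the class. Each of these 4 shared a pool value with another summit within 1000 bp, that is, a weak second summit was listed with the pool value of its stronger neighbour. Such shared values were found at 59 of the 2404 peaks (2.45%) and at 0.940% of all peaks. Of the 47 CpG-rich promoter peaks in the lowest 1% of the list, 20 shared a value.

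A CTCF motif match was less frequent here than in any class compared. Of the 2404 peaks, 661 (27.5%, interval 25.7 to 29.3%) held a match within 50 bp of the summit. The share over all conservative peaks, which include those that trained the motif, was 68.1%. It was 45.9% (43.9 to 48.0%) at CpG-poor promoters and 49.7% (46.2 to 53.2%) at CpG-rich peaks away from promoters. A match was defined by a score that 1% of windows flanking the training peaks passed, and 0.894% of windows 1000 bp to either side of the CpG-rich promoter peaks passed it. At CpG-rich promoters with no peak in any ranked list, 6 of 1030 (0.583%, 0.214 to 1.26%) passed it around the TSS. This share is low in part by choice, because promoters with a ranked peak were left out. Among all 11644 genes with a CpG-rich promoter, 285 had a match within 50 bp of a CpG-rich TSS, and 279 of these had a ranked peak. At the stricter score passed by 0.1% of flanks the shares fell to 5.53% here, 11.9% at CpG-poor promoters, 14.8% at CpG-rich peaks away from promoters and 24.7% of all peaks, so the order of the classes was the same.

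Signal and motif went together. Peaks with a match had a median percentile of 74.6 (quartiles 47.6 and 93.3), and peaks without had 35.6 (17.4 and 58.1). Pool I gave 73.4 and 35.0 and pool J gave 76.1 and 36.5. The list was cut into 10 equal parts by signal. In the weakest decile 8.33% of the CpG-rich promoter peaks held a match, in decile 5 22.7% and in the strongest decile 67.1% (61.6 to 72.2%). Peaks at CpG-poor promoters rose from 26.7% to 76.7% over the same range. CpG-rich peaks away from promoters rose from 6 of 60 in the weakest decile to 77.7% in the strongest. The intervals of CpG-rich and CpG-poor promoters did not overlap in deciles 1 to 9 and overlapped in the strongest, where CpG-poor promoters had 70.3 to 82.3%. Those of CpG-rich promoters and CpG-rich peaks away from promoters were apart only in deciles 6 to 8 and overlapped in the other 7 deciles, the strongest among them (71.2 to 83.4%). The widest gap was in decile 7, with 31.7% at CpG-rich promoters against 62.7% and 61.4%. In the strongest decile the interval at CpG-rich promoters lay below the 86.9% of all peaks.

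**Figure D1:**
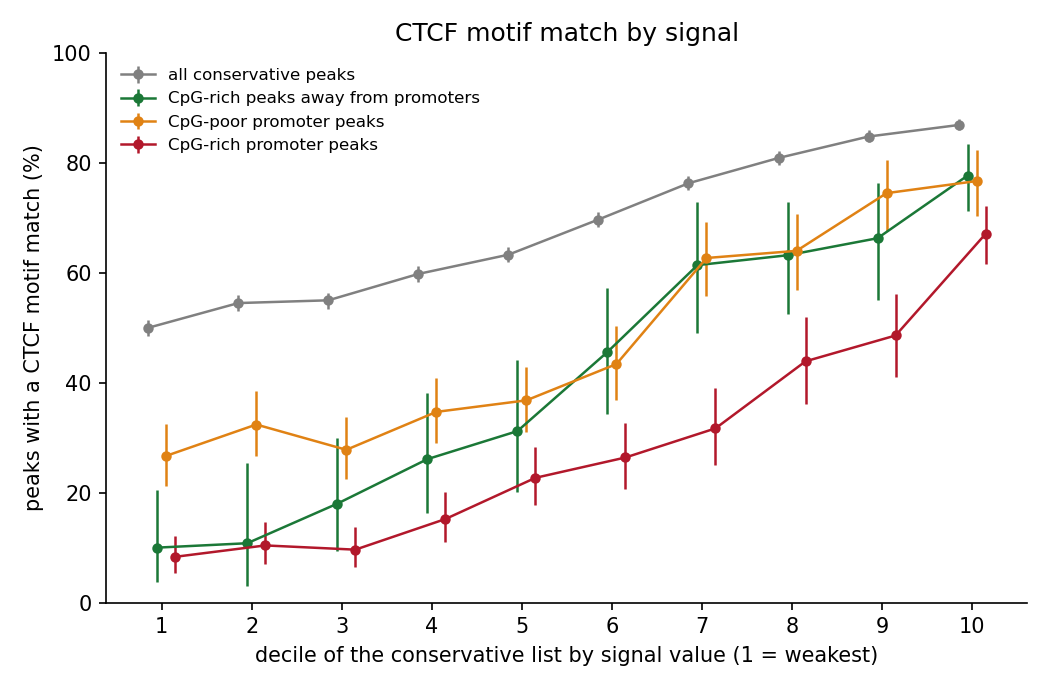
Share of peaks with a CTCF motif match within 50 bp of the summit (vertical axis, %) in each decile of the conservative list by signal value (horizontal axis, 1 = weakest), with exact 95% binomial intervals. CpG-rich promoter peaks rise from 8.33% to 67.1% and lie below all peaks in every decile. All peaks include those that trained the motif.

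Peaks without a match were not without CTCF-like sequence. Of the 1743 peaks without a match, 1054 (60.5%) passed the score that 10% of the training flanks passed, against 10.4% of the windows 1000 bp away from the same peaks. The share was lower than in the other classes, 64.4% at CpG-poor promoters, 66.7% at CpG-rich peaks away from promoters and 73.5% of the 14234 peaks without a match in the whole list. Their best 20-mer also lay near the summit, with a median offset of 13 bp, and 66.9% of them were within 20 bp, against 81.5% of all peaks without a match. For matches the median offset was 8 bp and 85.2% were within 20 bp. Several named peaks scored just below the limit of 11.6, such as Rps3a1, a ribosomal protein gene, at 11.5, and Grik4, a kainate receptor subunit, at 11.3. At the other end, 104 of the peaks without a match were in the strongest decile of the list. Spata20, Mapk1ip1l, Atxn7l1 and Rrp1, a factor of ribosomal RNA processing, were among the 5 strongest of them, with signal values of 394 to 404 in pool I and 295 to 311 in pool J. The scores of these 4 were between 0.984 and 4.75. In 3 of these 4 the summit lay 67 to 72 bp upstream of the TSS.

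A higher CpG ratio went with fewer matches. In 5 equal parts by CpG ratio, from lowest to highest, the share with a match was 31.2%, 30.3%, 28.8%, 26.5% and 20.6% (17.1 to 24.5%). Median signal percentiles over the same parts were 47.6, 49.5, 42.9, 45.1 and 40.5. The highest part had both the fewest matches and the lowest signal. The intervals of neighbouring parts overlapped at every step, but that of the highest part lay below that of the lowest part (27.1 to 35.6%). GC, position and signal were not held constant over the parts.

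The matches were richer in CpG than matches elsewhere, which the rule partly imposes because the match lies inside the window whose CpG was counted. In the 661 matches the most frequent bases spelled GCGGCCACCAGGGGGCGCCG, and in 28306 matches outside the 3 classes they spelled GTGGCCAGAAGAGGGCACCA. Of the matches at CpG-rich promoters 94.4% held at least 1 CpG, with a mean of 2.00 per match, against 35.5% and 0.41 in the other matches. Counted from the 5′ end of the motif, positions 16 and 17 held CpG in 76.9% of matches at CpG-rich promoters, 41.1% at CpG-poor promoters and 27.6% elsewhere. Positions 6 and 7 held it in 39.6%, 10.4% and 2.49%. The Nob1, Ocel1 and Prmt3 matches shown above hold a CpG at both places. Of the matches 20.1% here and 37.1% elsewhere also passed the stricter score.

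Position relative to the TSS separated strong from weak peaks. Of the 2404 summits, 1036 (43.1%) lay within 100 bp of a TSS and 1691 (70.3%) within 250 bp, against 17.5% and 36.4% at CpG-poor promoters. In all, 1402 (58.3%, 56.3 to 60.3%) lay upstream. Peaks with a match lay upstream in 68.5% (64.8 to 72.1%) and peaks without in 54.4% (52.1 to 56.8%), with median positions of -58 bp and -15 bp. The densest 50 bp bin of peaks with a match was 100 to 50 bp upstream, with 121 peaks. For peaks without a match it was the last 50 bp before the TSS, with 254 peaks. On the downstream side of the TSS the counts with a match fell from 102 in the last bin before it to 37 in the first bin after it, while those without fell from 254 to 186.

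**Figure D2:**
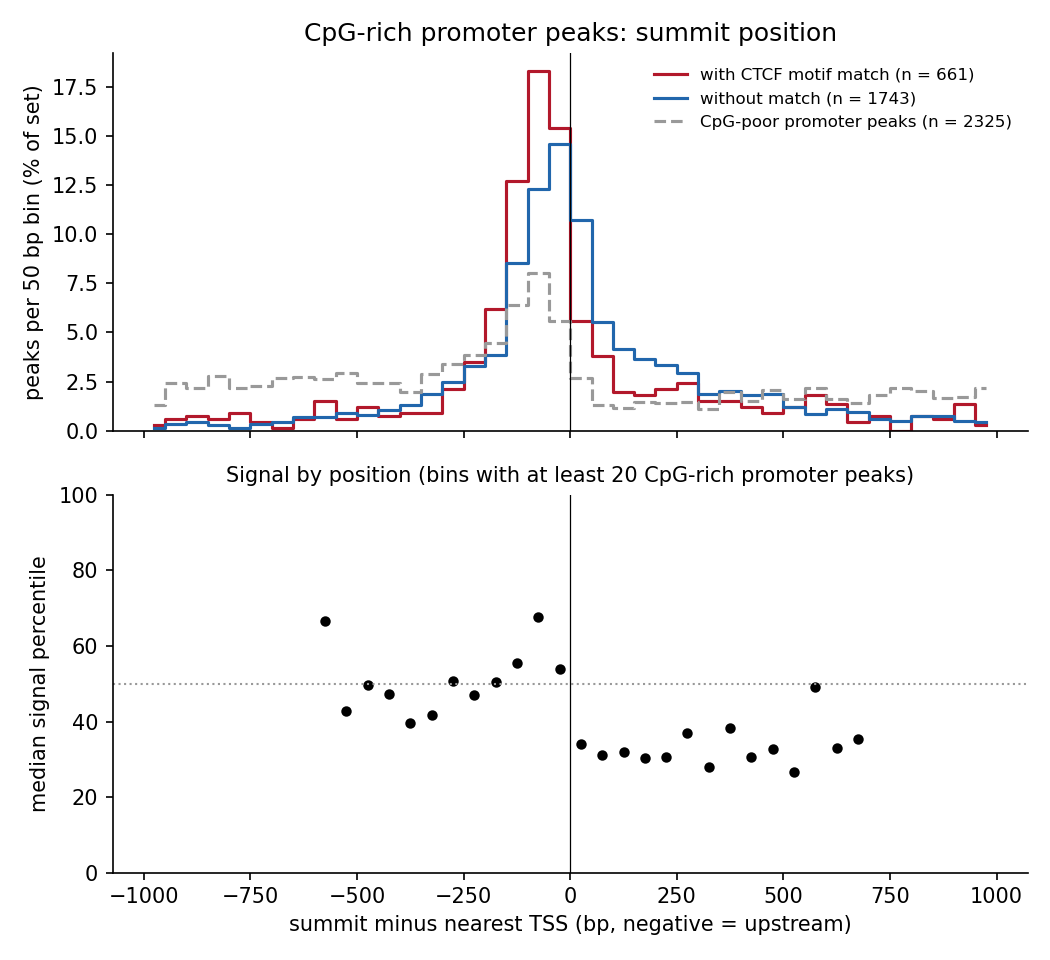
Upper panel, share of each set of peaks per 50 bp bin (vertical axis, %) by distance of the summit from the nearest TSS (horizontal axis, bp, negative upstream), for CpG-rich promoter peaks with and without a motif match and for CpG-poor promoter peaks. Lower panel, median signal percentile of CpG-rich promoter peaks in bins of at least 20 peaks; it is highest, 67.7, at 100 to 50 bp upstream and 34.1 in the first 50 bp downstream.

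Signal fell across the TSS as well. The 1112 peaks in the 250 bp upstream had a median percentile of 55.8, and 33.4% (30.6 to 36.2%) held a match. The 577 peaks in the 250 bp downstream had 31.9, and 17.5% (14.5 to 20.9%) held a match. Further out, 290 peaks upstream had a median of 51.2 and 425 downstream had 34.7. Of the 316 peaks in the strongest decile of the list, 276 (87.3%, 83.2 to 90.8%) lay upstream, and 210 (66.5%) lay in the 150 bp before the TSS. Of the 288 in the weakest decile, 125 (43.4%, 37.6 to 49.3%) lay upstream. This held with and without a motif: in the strongest decile 86.8% of 212 peaks with a match and 88.5% of 104 without lay upstream, with median positions of -78 bp and -69 bp. In the weakest decile the shares were 45.8% of 24 and 43.2% of 264, with a median position of 30 bp downstream in both.

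By annotation 45.4% of the summits lay outside protein-coding transcripts, 25.4% in a 5′ untranslated region, 20.5% in an intron and 8.15% in a coding exon. The 5′ untranslated region held 16.8% of the peaks with a match and 28.7% of those without. Introns held similar shares of both, 21.2% and 20.3%. At CpG-poor promoters 36.9% of summits were intronic and 8.65% in a 5′ untranslated region, a contrast that the rule may set in part, as for distance. Since a summit can fall in several transcripts, a 5′ untranslated region was counted first, then coding exons, 3′ untranslated regions and introns.

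The motif also had a preferred direction. The strand that reads as the consensus above was the coding strand of the nearest gene for 414 of 661 matches (62.6%, 58.8 to 66.3%). Within 250 bp upstream it was so for 261 of 371 (70.4%, 65.4 to 75.0%), and within 250 bp downstream for 54.5% (44.2 to 64.4%). All of the 8 matches shown above read in the direction of their gene, Cul5, Nob1, Adprhl2 and Psmd6 on the minus strand and Ocel1, Car7, Prmt3 and Phrf1 on the plus strand. At CpG-poor promoters the share upstream was 65.7% of 265 (59.6 to 71.4%), with an interval that overlaps, and over all matches it was 55.7% (52.7 to 58.7%), below the 62.6% here. Peaks without a match leaned the same way upstream. Their best 20-mer read in the gene's direction in 58.3% of 741 peaks (54.7 to 61.9%) at CpG-rich promoters and in 63.9% of 393 (58.9 to 68.6%) at CpG-poor promoters.

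Genes were then taken as the unit. Of 21755 protein-coding genes, 11644 had a CpG-rich window around at least 1 TSS, and 2295 of these (19.7%) held a CpG-rich promoter peak. Counting every conservative summit in the window whatever its sequence, 30.6% of genes with a CpG-rich promoter and 9.81% of the 10111 others had one. Before the IDR threshold 91.2% of CpG-rich and 33.8% of the other genes had some ranked peak within 1000 bp. In both comparisons any TSS of a gene counted, and 11114 of the 21755 genes had more than 1. A gene with more TSSs can more easily count as CpG-rich and as holding a peak, and the number of TSSs was not balanced. Of 7869 peaks at CpG-rich promoters in the ranked list of both pools, 5465 (69.4%) missed the IDR threshold of 0.05, close to the 66.5% of all ranked peaks. The peaks lay near 2522 genes in all, of which 227 had no CpG-rich window around a TSS and so stand outside the shares given per gene, and 2180 of the peaks (90.7%) lay near 1 gene only.

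A motif at the start site went with a peak. In 285 genes the motif matched within 50 bp of a CpG-rich TSS, and 165 of these (57.9%, 51.9 to 63.7%) held a CpG-rich promoter peak. Of the 11359 genes without such a match 18.8% did. With the stricter score, 33 of 35 genes (94.3%, 80.8 to 99.3%) held a peak. Most genes with a peak still had no match at the TSS itself, 2130 of 2295.

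**Figure D3:**
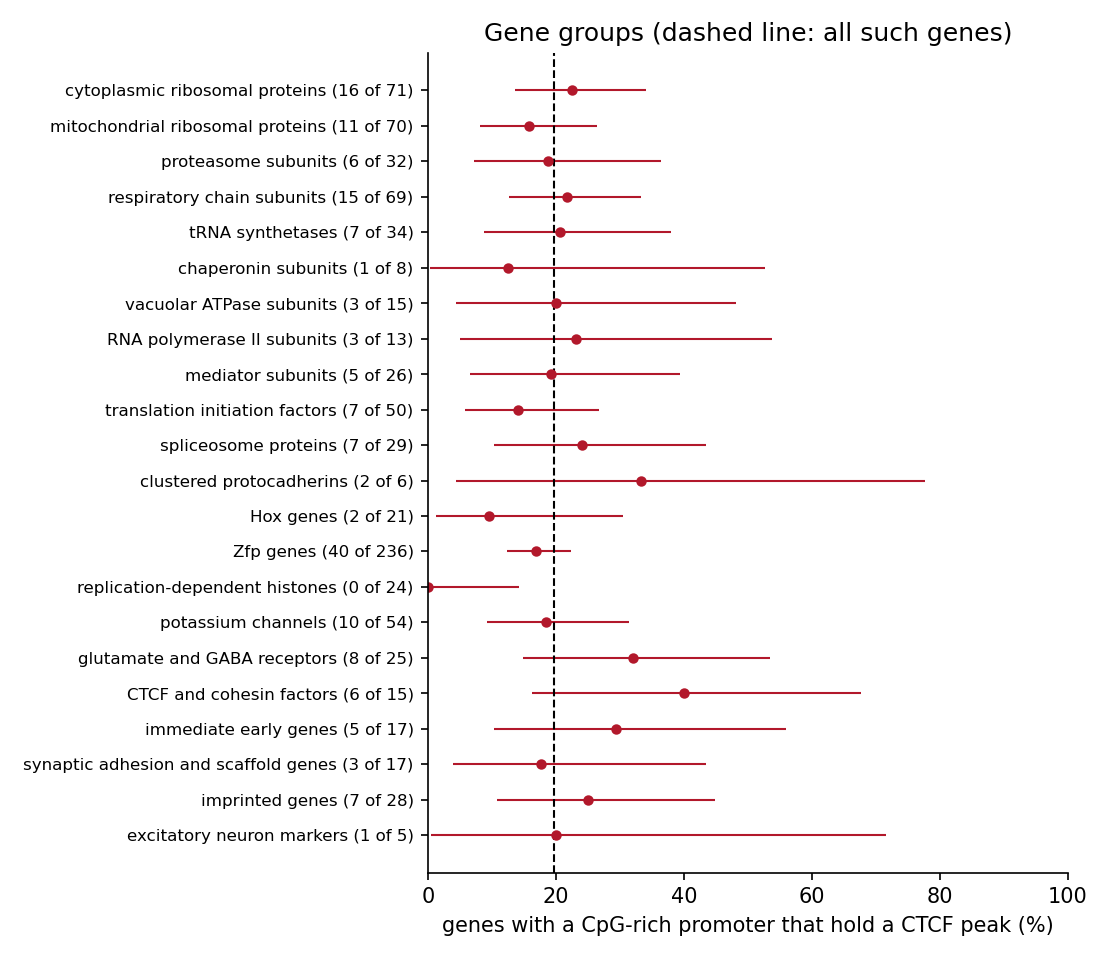
Share of genes with a CpG-rich promoter that hold a CpG-rich promoter CTCF peak (horizontal axis, %) for 22 gene groups with at least 5 such genes (vertical axis, with the counts), with exact 95% binomial intervals. The dashed line is the 19.7% of all such genes, and the intervals of 21 groups include it.

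Among groups of genes with shared roles, the interval of the share with a peak included the background of 19.7% in 21 of 22. Of the 2295 genes with a CpG-rich promoter and a peak, 633 (27.6%) had one with a match, which is the background for the counts of matches below. The cytoplasmic ribosomal proteins, the parts of the ribosome and typical CpG island genes, had a peak at 16 of 71 genes (22.5%, 13.5 to 34.0%). Rps3a1 (387 in pool I and 302 in pool J) and Rpl36 (360 and 283) were among the 3 strongest, and Fau had none. Mitochondrial ribosomal proteins had 11 of 70 (15.7%), led by Mrps33 (389 and 257), Mrpl17 (377 and 270) and Mrpl23 (348 and 226), and Mrpl1 had none. Subunits of the respiratory chain had 15 of 69 (21.7%), with the strongest at Atp5mpl and Ndufb7 (366 and 275), while Atp5a1 had none. The proteasome had 6 of 32 (18.8%), with Psmd6 far above Psmd11 (261 and 140) and Psmd7 (184 and 70.0), and Psma1 had none. Transfer RNA synthetases had 7 of 34 (20.6%), led by Rars (370 and 282).

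Subunits of complexes for transcription, splicing, translation, protein folding and proton transport had shares from 12.5% to 24.1%, with wide intervals. RNA polymerase II subunits had 3 of 13 (23.1%), Polr2c (365 and 270), Polr2j (381 and 250) and Polr2h (278 and 169), and Polr2a, the largest subunit, had none. Mediator subunits had 5 of 26 (19.2%), led by Med11 (312 and 196), and Med1 had none. Spliceosome proteins had 7 of 29 (24.1%), and 5 of these 7 held a motif match, among them Snrpe (390 and 250), Prpf18 (336 and 230) and Sf3a3 (279 and 160). Translation initiation factors had 7 of 50 (14.0%), none with a match, led by Eif3g (356 and 277). Chaperonin subunits had 1 of 8, at Cct7 (289 and 159), and vacuolar ATPase subunits 3 of 15, none of them with a match, led by Atp6v0e (387 and 228).

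Genes that encode CTCF itself and the cohesin machinery had the highest share of the groups, 6 of 15 (40.0%), with an interval of 16.3 to 67.7% that includes the background. Stag1, a core subunit of cohesin, had 2 peaks. The stronger had a summit 42 bp upstream, a match with a score of 23.2 and signal values of 372 in pool I and 288 in pool J, and the weaker, 550 bp upstream, had 83.3 and 43.3 and no match. Esco1, the acetyltransferase that acts on cohesin, had 371 and 258, and Pds5b, a regulator of cohesin, had 295 and 229, both with a match. Cdca5, which encodes sororin, had no peak. Stag2, another cohesin subunit, was reached by a peak but had no CpG-rich window around a TSS and is not among the 15.

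The intervals of the neuronal groups also included the background. Glutamate and GABA receptor genes had 8 of 25 (32.0%, 14.9 to 53.5%), led by Grm4 (399 and 268), a metabotropic glutamate receptor, and Gabbr1 (311 and 155), a GABA-B receptor subunit, while Gabbr2 had none. Potassium channel genes had 10 of 54 (18.5%), led by Kcnh1 (315 and 254), with a match, and Kcna1 had none. Immediate early genes, which neuronal activity induces, had 5 of 17 (29.4%), led by Egr1 (346 and 211) and Dusp1 (275 and 122), while Arc had none. Synaptic adhesion and scaffold genes had 3 of 17 (17.6%), Cadm1 (174 and 95.1), Dlgap1 (147 and 52.6) and Lrrtm1 (68.4 and 33.2), all below the middle of the list. Among excitatory neuron markers 1 of 5 had a peak, at Cux2 (382 and 244), with its summit 637 bp upstream, and Camk2a had none.

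Several groups lie in gene clusters. None of 24 replication-dependent histone genes with a CpG-rich promoter held a peak, an interval of 0 to 14.2% that lies below the background. Of the 24, 14 had a ranked peak, against 91.2% of all genes with a CpG-rich promoter. This count leaves out 43 histone genes with no CpG-rich window around a TSS, and 3 of these were reached by a CpG-rich promoter peak, Hist3h2a (240 in pool I and 84.2 in pool J) and, by 1 shared peak, Hist1h2bb and Hist1h3c (51.3 and 20.2). Neither peak held a match. Over all 10111 genes with no such window, 227 were reached. Hox genes, the clustered homeobox genes that pattern the body axis, had 2 of 21 (9.52%, 1.17 to 30.4%), Hoxa10 (206 and 84.6) and Hoxa5 (134 and 59.8), both with a match. Any ranked peak was found at 6 of the 21, against the same 91.2%. Of the 18 Hox genes with no CpG-rich window around a TSS, 2 were reached by a peak, Hoxb5 (165 and 66.8) with a match and Hoxc10 (84.5 and 32.8) without. Zfp genes, which encode zinc finger proteins, had 40 of 236 (16.9%), and 5 of these 40 had a match, with the strongest at Zfp638 (378 and 297), Zfp398 (394 and 268) and Zfp341 (334 and 272). The clustered protocadherins, whose promoter choice depends on CTCF, had a CpG-rich promoter at only 6 of 56 genes, and 2 of these held a peak, Pcdhac1 (384 and 234) and Pcdhgc3 (213 and 75.3), neither with a match. Imprinted genes had 7 of 28, H13 (358 and 272) among them. Peg10 and Sgce, which share a promoter region, were reached by the same peak (262 and 106).

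Some peaks lay between 2 protein-coding genes that start back to back. There were 74 of these (3.08%), and 19 (25.7%, 16.2 to 37.2%) held a match, near the 27.6% of the other 2330. Their median percentile was 42.1, against 44.8. The 5 strongest lay between Nae1 and Car7, between Tas1r1, a taste receptor gene, and Nol9, a kinase of ribosomal RNA processing (389 and 271), between Cdiptos and Cdipt, the phosphatidylinositol synthase (368 and 270), between Trim46 and Krtcap2 (358 and 257), and between Abca17 and Abca3, a lipid transporter (356 and 260). Genes in a divergent pair with starts within 1000 bp held a peak in 18.8% (303 of 1610, 16.9 to 20.8%), and the other genes with a CpG-rich promoter in 19.9% (1992 of 10034). The difference was within the intervals.

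Few genes held several of these peaks. There were 106 genes with 2 or more and 6 with 3 or more. Abhd18, Dlc1 (a GTPase-activating protein), Fat1 and Fat3 (giant cadherins) and Nrg1 (the growth factor neuregulin) each had 3. At Nrg1 they lay at 2 separate start regions on chromosome 8, with summits at 32008675, 32009730 and 32883948, at percentiles of 79.4, 50.7 and 46.3. At Fat1 the percentiles were 82.0, 7.14 and 0.205, and the 2 weaker summits shared their pool values of 62.5 and 26.1.

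The pools ordered these peaks alike. Over the 2404 peaks the pool I and pool J values had a Spearman rank correlation of 0.954, a description over peaks that the IDR had selected for like ranks and that share both libraries. It was 0.961 for peaks with a match and 0.926 for those without. The ratio between the pools depended on strength. Centred on its median in the whole list, the log2 ratio (pool I over pool J) had a median of -0.57 in the strongest decile and 0.29 in the weakest decile, and over all peaks of the list it was -0.49 and 0.29. In the strongest decile peaks with and without a match had -0.58 and -0.56.

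**Figure D4:**
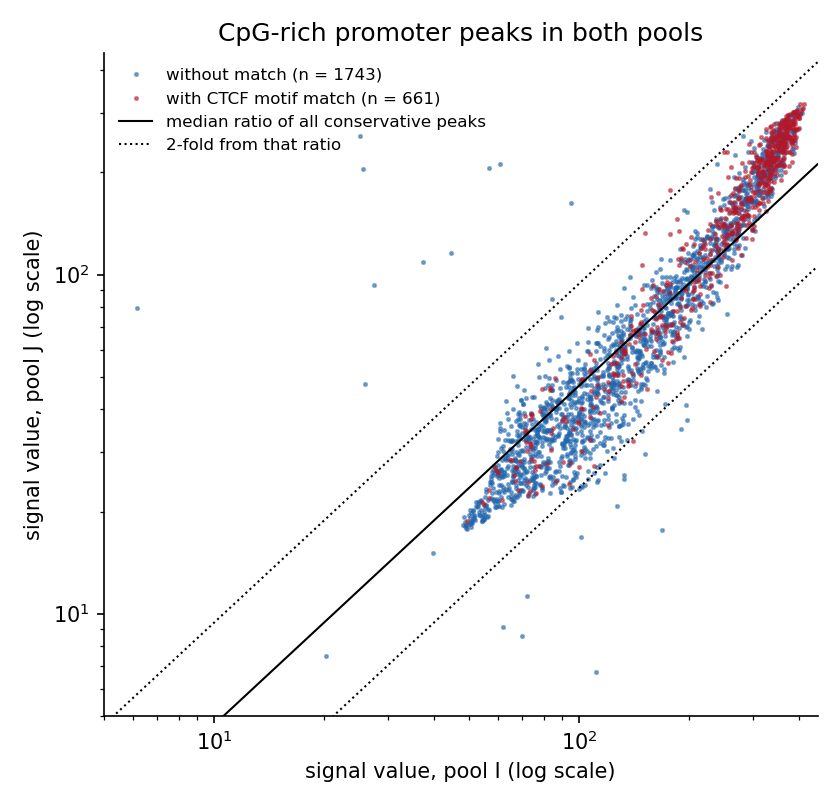
Signal value in pool I (horizontal axis) and pool J (vertical axis), both on log scales in the authors' unit, for the CpG-rich promoter peaks with and without a CTCF motif match. The solid line is the median ratio of all conservative peaks and the dotted lines are 2-fold from it; 34 peaks lie outside the dotted lines.

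More than 2-fold from the median ratio lay 34 of the 2404 peaks (1.41%), against 0.470% of all conservative peaks. Of the 34, 22 lay towards pool I and 12 towards pool J. Over all conservative peaks the direction was split alike, with 131 towards pool I and 79 towards pool J. Only 2 of the 34 held a motif match. The furthest towards pool J were Pnma1 (6.15 in pool I and 79.4 in pool J), Casp2 (25.2 and 256) and Hdac10 (25.6 and 205), and all 3 shared a pool value with a neighbouring summit. Without the summits that share a value, 21 of 2345 (0.896%) were left, against 0.289% of all such peaks. Of the 21, 19 lay towards pool I, and over all such peaks of the list 117 of 128 did, so this lean was not particular to the class. The furthest of the 21 towards pool I were Klf7, a transcription factor (111 in pool I and 6.74 in pool J), Usf2, an E-box binding factor (169 and 17.7), and Khk, the ketohexokinase (69.6 and 8.60), none with a match. This Klf7 summit lies in the same interval as another summit, which had 121 and 50.1. Summits in intervals with several summits were 3.24% of the CpG-rich promoter peaks and 1.11% of all peaks. Those without a shared value were not taken out. With 1 value per pool, no difference between pools was tested.

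Binding sequences of other promoter factors were counted in the same windows around the summit, on either strand. The GC box GGGCGG was in 58.8% of the CpG-rich promoter peaks, equally with a CTCF match (58.5%) and without (58.9%). It was in 62.5% of 1030 CpG-rich promoters that had no ranked peak and in 69.0% of all CpG-rich promoters. The GC box can lie inside a CTCF match, as it did in 69 of 661. The ETS core CCGGAAG was in 10.6%, against 12.2% at promoters without a peak, 15.6% of all CpG-rich promoters and 9.17% around all protein-coding TSSs. The CCAAT box was in 17.4%, below the 27.4% (24.7 to 30.2%) at promoters without a peak and the 24.1% of all CpG-rich promoters. The E-box CACGTG, read by Usf2 and Myc-like factors, was in 5.49%. It was in 10.4% (8.59 to 12.4%) of promoters without a peak and 7.69% of all CpG-rich promoters. The CRE TGACGTCA was in 0.605% (0.165 to 1.54%) of peaks with a CTCF match and 1.72% of those without. It was in 2.23% of promoters without a peak and 3.01% of all CpG-rich promoters.

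**Figure D5:**
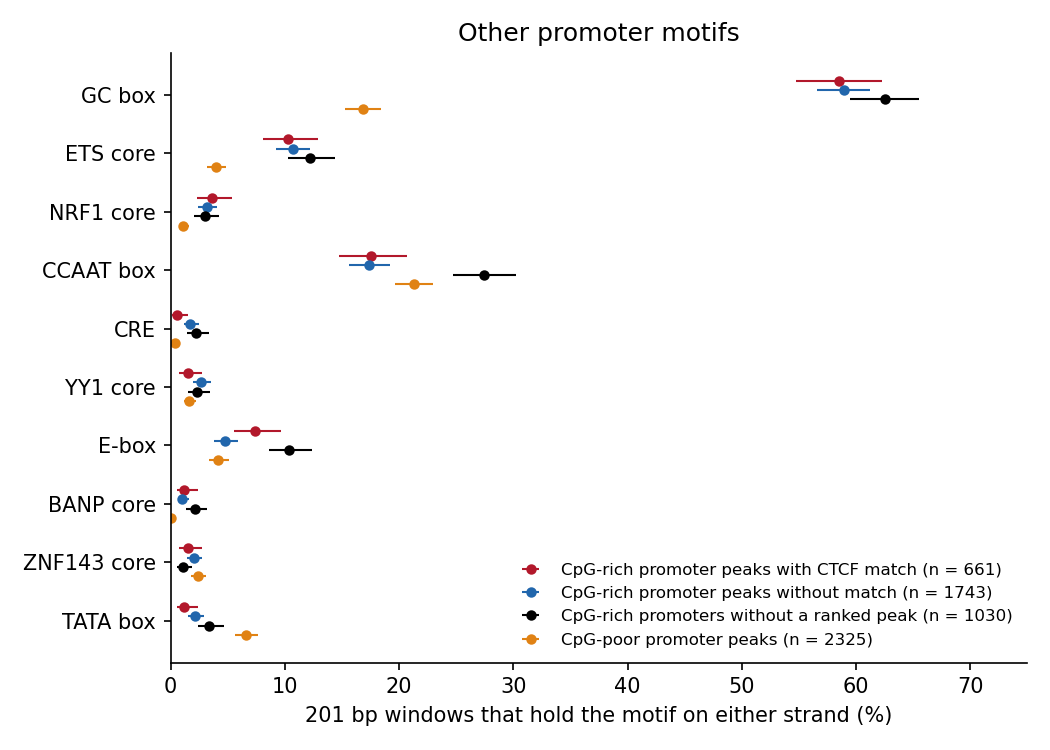
Share of windows of 100 bp to either side (horizontal axis, %) that hold each of 10 short motifs (vertical axis) on either strand, with exact 95% binomial intervals. CpG-rich promoter peaks with and without a CTCF match have overlapping intervals for all 10 motifs.

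The other short sequences were each in under 4% of the peaks. The NRF1 core GCATGCGC was in 3.29%, against 3.01% at promoters without a peak and 4.47% of all CpG-rich promoters. The YY1 core AAGATGGC was in 2.33%, the same as the 2.33% at promoters without a peak and below the 4.61% at all CpG-rich promoters. The ZNF143 core ACTACAA was in 1.87%, against 1.07% at promoters without a peak and 1.91% of all CpG-rich promoters. The BANP core CTCGCGAG was in 1.08% of the peaks and in 3.85% (4 of 104) of those in the strongest decile without a CTCF match. It was in 2.14% of promoters without a peak and 1.61% of all CpG-rich promoters. The TATA box TATAAA was in 1.87%, against 3.40% of promoters without a peak and 2.40% of all CpG-rich promoters. It was in 6.58% of CpG-poor promoter peaks, but it holds only A and T, so the GC limit of the rule sets that contrast in part. Windows of peaks are centred on the summit and windows of promoters on the TSS, so a sequence tied to the TSS counts for less in the peaks.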

How the data were processed

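CTCF ChIP-seq peak lists of 4 libraries (2 technical replicates each of pool I and pool J) were analysed. Per the labels the assembly is mm10. Per the notes deposited beside the lists, both libraries of a pool were merged into 1 alignment before peaks were called. Which aligner and peak caller were used was not given in the sources used here. The read depth is unknown. The signal value deposited by the authors is a score in the peak caller's own unit. A further deposited score is the scaled IDR, and the deposited ranked list also gives the IDR as −log10. The 2 inputs of that list were matched to the pools by identical intervals. Chromosomes 1 to 19 and X were used.

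Summits were placed on GRCm38.p6 with GENCODE M21 (basic), all TSSs of protein-coding genes. Printed sequences leave out chromosome 18, where the strongest peak (Cep120) lies. The 1000 conservative peaks with the highest signal were used to learn the CTCF motif, taken from those of odd-numbered autosomes which were neither CpG-rich nor within 1000 bp of any TSS, starting from a degenerate core. A match passed the score (11.6) that 1% of windows centred 1000 bp to either side of those peaks passed. The motif search and the TSS distances were tested on simulated data. A gene held a peak if a summit lay within 1000 bp of any of its TSSs. Motifs were read from the reference strain, so sequence differences of the other parental strain were not seen.

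Genes were named by a rule, passing over clone symbols: the genes nearest the 10 strongest peaks, the 5 strongest without a match, the 5 weakest, the 3 furthest from the median pool ratio in each direction and the 5 strongest between divergent TSSs, the 5 genes with the most summits, and, for each gene group, up to 3 with the strongest peak and the first without one. Some of these genes are not reported here. Rps3a1 and Grik4 are also named for scores near the limit, after their values were seen. Stag2 and the histone and Hox genes outside the shares were also named after their values were seen. The peaks, gene groups and rules were chosen with earlier results of these data known. Marker groups of other cortex cell types and of liver and blood had fewer than 5 genes with a CpG-rich promoter each. With 1 value per pool no test was run. Scripts ran under Python 3.11.15 with SciPy 1.17.1, pandas 2.3.3 and numpy 2.4.6, and figures under matplotlib 3.10.9. Alternatives in list, window, sequence limits and motif settings are given in the closing section.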

Additional observations from a re-analysis of the deposited data

How the results depend on the processing

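The list, the windows, the sequence limits, the IDR, the TSS set and the motif settings were changed 1 at a time, and 18 of 37 alternative values stayed within the interval (or within 1.5 times the count) of the value reported. The number of CpG-rich promoter peaks rose to 5234 in the pool I list. The share with a motif match was 5.53% at the score passed by 0.1% of flanks, 35.1% at the score passed by 1% of CpG-rich promoters without a ranked peak, 32.9% within 20 bp and 20.2% within 100 bp of the summit (the limit was set again on flanks of the same size, so it is lower for the narrower search), 31.7% with a motif learned from every class, and 24.1%, 14.8% and 23.1% in the pooled, pool I and pool J lists. The order of the classes was the same under each change of score or training set. The median percentile was 42.6 in the pool I list and 42.6 in the pool J list. The upstream share was 61.2% within 500 bp. The count over 2-fold became 363 at 1.5-fold, and 21 without summits that share a pool value, an alternative chosen after seeing the data. The share of genes with a peak was 17.6% within 500 bp, 20.7% within 2000 bp, and 23.1%, 39.5% and 24.6% in the pooled, pool I and pool J lists. A tighter limit on score or list size changes what is counted, and no other cause was tested. No paired analysis was possible because the libraries of each pool were merged before deposit, and for the same reason no library could be left out in turn. Depth is unknown, so peaks missing from a list may lie below detection.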

Other observations

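The X chromosome had fewer of these peaks per gene than the autosomes. Of its 340 genes with a CpG-rich promoter 43 (12.6%, interval 9.31 to 16.7%) held one, while the autosomes ranged from 16.9% to 23.7% with a median of 19.5%. Before the IDR threshold 73.5% of the X-linked genes had a ranked peak, against 91.7% of the autosomal ones. The 48 peaks on X had a median signal percentile of 36.0. The animals were female, and a peak on one X chromosome cannot be told apart from a peak on both.

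The 8 central bases of the learned consensus (positions 10 to 17), AGGGGGCG, were searched on either strand in the 81 bp around the summit, a choice made after the values were seen. They were present in 34.2% of the CpG-rich promoter peaks with a match. Among the peaks without a match they were present in 17 of 104 in the strongest decile of the list (16.3%, 9.82 to 24.9%) and in 16 of 264 in the weakest decile (6.06%, 3.50 to 9.66%). Around the TSS of CpG-rich promoters without a ranked peak they were present in 22 of 1030 (2.14%), and in 3.98% of all CpG-rich promoters.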
